A study of Mus musculus with 47 samples.

Results

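The genes described here are 10 genes of monoamine synthesis, transport and breakdown: Th, Ddc, Dbh, Tph2, Slc18a2, Slc6a2, Slc6a3, Slc6a4, Maoa and Maob. They were taken by Ensembl identifier from the tables of read counts, where all 10 had a row, among 33139 rows for brainstem and 31751 for hippocampus. The study sequenced polyA RNA from brainstem and hippocampus of male C57BL/6 mice to ask how a long-term high-fat diet (HFD) acts on the brain in a model of alpha-synuclein pathology. TG mice were homozygous for human A30P mutant alpha-synuclein under the Thy1 promoter, which is active in neurons of the central nervous system, and WT mice carried no transgene. The WT colony was bred in parallel from the same outcross, so colony and transgene cannot be told apart. Mice of both genotypes received the standard diet (SD) or HFD from weaning until they were about a year old, which gave the groups WT_SD, WT_HFD, TG_SD and TG_HFD. Each group held 6 libraries per region, apart from WT_SD of brainstem with 5, where the RNA of 1 sample was of low quality. The brainstem tissue was the caudal part, the medulla, and the hippocampus was taken whole.

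Monoamine neurons make dopamine, noradrenaline or serotonin from tyrosine or tryptophan. Th and Tph2 catalyze the rate-limiting steps for catecholamines and brain serotonin, Ddc makes the amine, and Dbh turns dopamine into noradrenaline. Slc18a2 (VMAT2) loads the amines into vesicles, the transporters Slc6a2 (NET, noradrenaline), Slc6a3 (DAT, dopamine) and Slc6a4 (SERT, serotonin) take them up again after release, and Maoa and Maob oxidize them. Cell bodies of noradrenaline and serotonin neurons lie in the brainstem and send axons to the hippocampus, where few of these neurons have their cell bodies. Whether the caudal part sampled here holds the cell bodies whose axons reach the hippocampus was not tested.

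Library totals lay between 10020784 and 15078812 reads in brainstem and between 11945971 and 17328447 in hippocampus. The transgene was found at 3484 to 4823 CPM (counts scaled to library size) in brainstem of TG mice and at 0.506 to 3.70 CPM in brainstem of WT mice. In hippocampus it lay at 3934 to 4551 CPM in TG and at 0.776 to 3.002 CPM in WT mice. Tissue markers followed the labels: the 13 Hox genes of the hindbrain list summed to 29.7 to 175 CPM per library in brainstem and to at most 0.227 CPM in hippocampus, and the 7 genes of hippocampal principal neurons summed to 122 to 170 CPM in brainstem and to 3770 to 4733 CPM in hippocampus. CPM values were scaled by the TMM method. A count was taken as testable at a mean of at least 50 reads over the libraries of a region, which 9 of the 10 genes passed in brainstem (all but Slc6a3) and 4 in hippocampus (Ddc, Slc18a2, Maoa and Maob).

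In brainstem, the genes for breakdown were the most abundant per exonic length and the dopamine transporter was nearly absent. Mean levels in CPM per kb of exonic length (± SD, n = 23 libraries) were 19.3 ± 1.69 for Maoa, 13.2 ± 1.31 for Maob, 10.5 ± 3.09 for Tph2 and 8.21 ± 1.69 for Slc18a2. They were 7.13 ± 0.936 for Ddc, 6.08 ± 2.86 for Dbh, 4.25 ± 1.48 for Th, 3.45 ± 1.94 for Slc6a2 and 3.14 ± 0.998 for Slc6a4. In this order, Maoa stood apart from Maob by more than their SDs together, whereas each neighbouring pair from Maob down to Slc6a4 lay closer than the larger of its SDs. Slc6a3 came last at 0.0796 ± 0.0505 CPM per kb, from 81 reads in all 23 libraries. Of the factors of the dopamine list, Pitx3 had 5 reads over all brainstem libraries, Lmx1a 329, En1 338 and Nr4a2 1190, and Aldh1a1, an enzyme found in other cells too, was at 310.5 CPM. Pnmt, which makes adrenaline from noradrenaline, had 27 reads. Fev (Pet1) and Lmx1b, factors of serotonin neurons, were at 0.732 ± 0.323 and 5.28 ± 1.48 CPM.

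The sequences just before the annotated starts of Th, Dbh, Tph2 and Slc6a4 are shown because these are 4 of the 5 genes with the widest variation between mice described below, which form 2 sets. The table used here has no entry for Slc6a2, the most variable one, or for Maob. They are the 250 bases before the RefSeq start in GRCm38.p6, read 5′ to 3′ on the strand of the gene. Capitals mark ATTA or its reverse complement TAAT, the core bound by many homeodomain factors, and TGACGTCA, the cAMP response element, which is its own reverse complement. Neither motif contains the other. The windows are chr7:142899996-142900245 on the minus strand for Th, chr2:27165257-27165506 on the plus strand for Dbh, chr10:115185023-115185272 on the minus strand for Tph2 and chr11:76998347-76998596 on the plus strand for Slc6a4.
Th: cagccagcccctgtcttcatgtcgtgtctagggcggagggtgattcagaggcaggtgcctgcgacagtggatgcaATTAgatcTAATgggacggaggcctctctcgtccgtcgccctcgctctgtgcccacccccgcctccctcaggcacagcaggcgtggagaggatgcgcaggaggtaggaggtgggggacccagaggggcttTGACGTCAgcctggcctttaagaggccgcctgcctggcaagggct
Dbh: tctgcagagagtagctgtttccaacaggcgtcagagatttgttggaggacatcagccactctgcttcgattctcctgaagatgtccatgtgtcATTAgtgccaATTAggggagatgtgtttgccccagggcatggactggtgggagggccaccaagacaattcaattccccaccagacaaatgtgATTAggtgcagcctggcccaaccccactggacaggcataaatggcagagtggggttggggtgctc
Tph2: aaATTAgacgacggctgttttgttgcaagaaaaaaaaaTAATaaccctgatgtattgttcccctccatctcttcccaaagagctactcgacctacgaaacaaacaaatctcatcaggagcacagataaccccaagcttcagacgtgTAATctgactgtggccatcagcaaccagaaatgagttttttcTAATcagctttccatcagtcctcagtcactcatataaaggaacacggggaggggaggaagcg
Slc6a4: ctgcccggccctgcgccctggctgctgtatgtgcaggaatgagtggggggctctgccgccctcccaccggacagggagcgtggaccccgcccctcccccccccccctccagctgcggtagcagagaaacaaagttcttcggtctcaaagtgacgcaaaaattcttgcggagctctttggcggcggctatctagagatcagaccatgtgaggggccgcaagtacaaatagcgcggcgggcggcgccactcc
The homeodomain core occurred at 2 positions before Th, 3 before Dbh, 4 before Tph2 and 0 before Slc6a4. Of 32851 windows of this length in the table, 54.9% held it at least once and 17.3% at 3 positions or more. The cAMP response element stood before Th, starting at position -45, and occurred in 1.55% of windows. The TATA box TATAAA, searched on both strands (TTTATA), started at position -30 before Tph2 and was found in 12.4% of windows. These matches describe letters, and binding was not measured.

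None of the 9 testable genes was called between genotypes or diets in brainstem. A gene was called where the quasi-likelihood test of edgeR gave an adjusted p up to 0.05 together with a log2 fold change of 0.3 or more in either direction. The model held 4 surrogate variables, which stand for further variation between libraries and which the CPM values do not account for. They can overlap with the groups, and fitted differences between groups changed with them. For TG_HFD/WT_HFD, the log2 fold change of Dbh was 0.30 with them and -0.19 without. The adjustment of p was over all 13340 genes tested. Over all these genes, 0.142% were called for TG_SD/WT_SD, 0.0525% for TG_HFD/WT_HFD, 0% for WT_HFD/WT_SD, 0.0075% for TG_HFD/TG_SD and 0.0075% for the interaction of genotype and diet, so that 0 of 9 was close to this background. In whole tissue, fewer cells of a type and less RNA per cell cannot be told apart. Of 45 tests of these genes in brainstem, 5 had an unadjusted p of at most 0.05 in edgeR, and the lowest adjusted p was 0.414. Over all 13340 genes, such a p was found for 1399, 746, 724, 922 and 644 in the same order of comparisons. DESeq2 likewise called 0 of the 9 in each comparison. For WT_HFD/WT_SD, however, 3 of the 9 had an unadjusted p of at most 0.05 in edgeR and 0 in DESeq2. With other scalings, filters and covariates in edgeR, this number lay between 1, with the replicate number as a block, and 6, with 2 surrogate variables. In the fits with 4 surrogate variables of this comparison, edgeR called 0 of all genes and DESeq2 called 1. Values of 2 groups overlapped for every one of the 9 genes in each of the 4 comparisons of genotype or diet, where groups did not overlap for 0.547% (TG_SD/WT_SD), 0.69% (TG_HFD/WT_HFD), 0.427% (WT_HFD/WT_SD) and 0.172% (TG_HFD/TG_SD) of all genes. The comparisons share groups, so their values are not independent of each other.

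**Figure D1:**
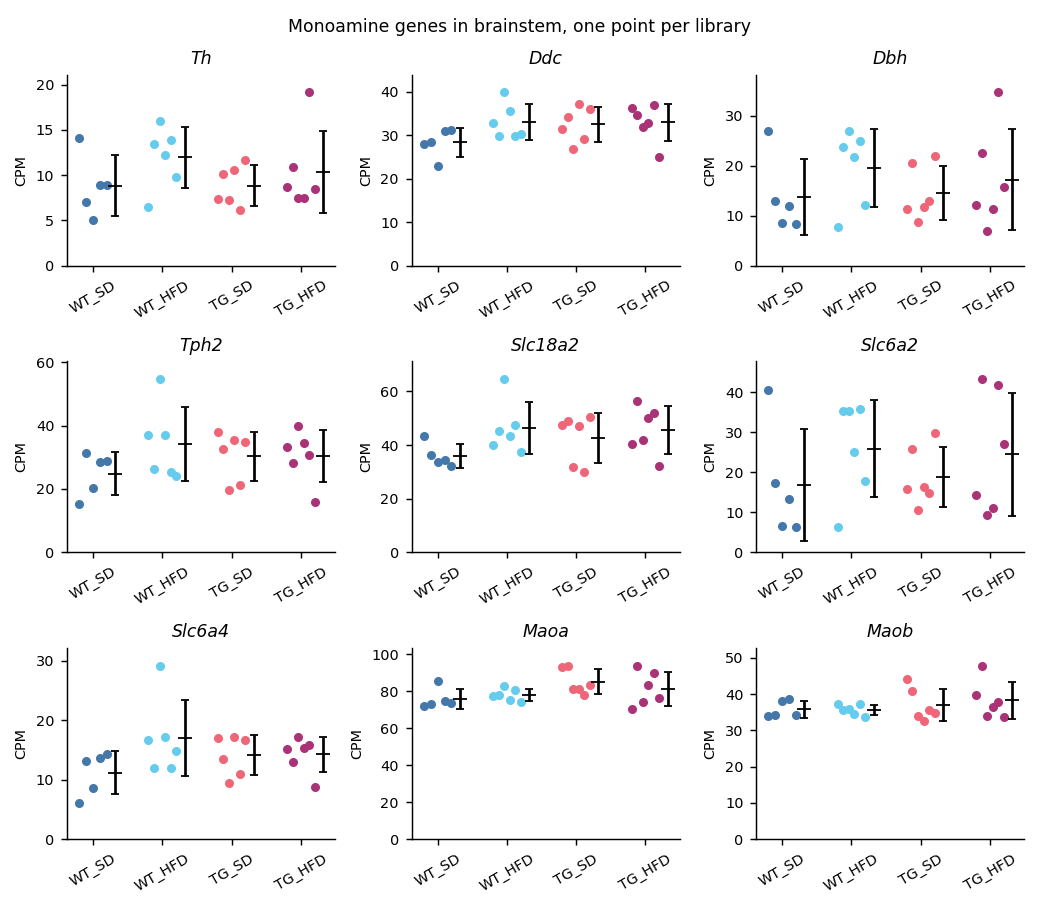
Levels of the 9 testable genes in brainstem. Each panel shows one gene, each point one library in CPM (y axis from 0), by group (x axis), and the black bar at the right of each group gives the mean ± SD; groups overlap in every panel, and the ratio of the highest to the lowest library is largest for Slc6a2 (6.22 to 43.3 CPM) and smallest for Maoa (70.5 to 93.8 CPM).

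The noradrenaline genes spread widely within every group. Slc6a2 was at 40.4, 17.3, 6.67, 13.3 and 6.22 CPM in the 5 WT_SD libraries. Its lowest, median and highest values were 6.26, 30.2 and 35.7 CPM in WT_HFD, 10.5, 15.97 and 29.8 CPM in TG_SD, and 9.24, 20.8 and 43.3 CPM in TG_HFD. A WT_SD library was thus among the highest of all, and the WT_HFD group held a library as low as the lowest of WT_SD. The fitted log2 fold change for WT_HFD/WT_SD was 0.66 ± 0.32 (SE), with a 95% interval from 0.00959 to 1.31, an unadjusted p of 0.0469 and an adjusted p of 0.918 in edgeR. It ranged from 0.37 without WT_HFD replicate 2 to 0.95 without WT_SD replicate 1. For TG_SD/WT_SD it was 0.51 (interval -0.15 to 1.18), and without surrogate variables 0.21. It ranged from 0.30 without WT_SD replicate 7 to 0.96 without WT_SD replicate 4. The intervals for TG_HFD/WT_HFD (-0.64 to 0.79) and TG_HFD/TG_SD (-0.41 to 0.87) leave room for differences in either direction.

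Dbh, the enzyme that makes noradrenaline, stood at 26.8, 12.9, 8.45, 11.97 and 8.32 CPM in WT_SD. The lowest, median and highest values were 7.66, 22.8 and 27.0 CPM in WT_HFD, 8.70, 12.3 and 21.9 CPM in TG_SD, and 6.85, 13.9 and 34.8 CPM in TG_HFD. The highest library of WT_SD lay within the upper part of the WT_HFD group. Fitted log2 fold changes lay between 0.27 and 0.30 in the 4 comparisons, each with an interval that spans 0. Leaving out 1 library moved them widely, to 0.07 without WT_HFD replicate 2 or 0.50 without WT_HFD replicate 8 for WT_HFD/WT_SD, to 0.12 without WT_SD replicate 7 or 0.61 without WT_SD replicate 4 for TG_SD/WT_SD, and to 0.07 without TG_HFD replicate 3 or 0.51 without TG_HFD replicate 1 for TG_HFD/TG_SD. The value for TG_HFD/WT_HFD was 0.30 with surrogate variables and -0.19 without, and -0.12 without TG_HFD replicate 7, so its direction was not settled.

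Th was at 14.2, 7.08, 5.04, 8.91 and 8.88 CPM in WT_SD, and its means were 8.81 ± 3.38 CPM (SD, n = 5) in WT_SD and 8.83 ± 2.25 CPM (n = 6) in TG_SD. The fitted log2 fold change between these groups was 0.22 (interval -0.16 to 0.60) with surrogate variables and 0.02 without them. On HFD, the lowest, median and highest values were 6.43, 12.9 and 15.9 CPM in WT and 7.47, 8.53 and 19.2 CPM in TG mice. A single library, TG_HFD replicate 7, was the highest of all 23. The fitted log2 fold change for WT_HFD/WT_SD was 0.30 (interval -0.08 to 0.68).

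The serotonin genes varied less than the noradrenaline genes but more than most genes. Tph2 was at 15.1, 31.3, 20.3, 28.6 and 28.9 CPM in WT_SD. Its lowest, median and highest values were 24.0, 31.7 and 54.7 CPM in WT_HFD, 19.5, 33.7 and 37.8 CPM in TG_SD, and 15.97, 31.9 and 39.98 CPM in TG_HFD. The medians of the groups thus lay close together, and the extremes belonged to 1 library of WT_SD and 1 of WT_HFD. Slc6a4 was at 6.09, 13.2, 8.59, 13.6 and 14.3 CPM in WT_SD. It ran from 11.97 over a median of 15.8 to 29.2 CPM in WT_HFD, from 9.44 over 15.1 to 17.1 CPM in TG_SD, and from 8.83 over 15.3 to 17.2 CPM in TG_HFD. The same libraries as for Tph2, WT_SD replicate 1 and WT_HFD replicate 3, held its lowest and highest value. For WT_HFD/WT_SD, edgeR gave Slc6a4 a log2 fold change of 0.55 ± 0.24 (SE; interval 0.05 to 1.05), with an unadjusted p of 0.0321 and an adjusted p of 0.896. It was 0.33 without WT_SD replicate 1 and 0.71 without WT_SD replicate 8. Tph2 had 0.36 (interval -0.12 to 0.84) in the same comparison, and 0.14 without WT_SD replicate 6. In TG mice the diet comparison gave 0.03 (interval -0.42 to 0.49) for Slc6a4, and the interaction of -0.51 had an interval from -1.23 to 0.21 and was -0.26 without WT_SD replicate 6.

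Ddc and Slc18a2 serve both kinds of neuron. Ddc had means of 28.3 ± 3.36 CPM in WT_SD (SD, n = 5), 33.0 ± 4.06 in WT_HFD, 32.4 ± 4.06 in TG_SD and 32.9 ± 4.35 in TG_HFD (n = 6 each). Slc18a2 was at 43.5, 36.4, 33.7, 34.4 and 32.02 CPM in WT_SD, with means of 46.3 ± 9.67 CPM in WT_HFD, 42.6 ± 9.21 in TG_SD and 45.5 ± 8.92 in TG_HFD. Both genes thus had their lowest mean in WT_SD, and the lowest Ddc library of all belonged to this group, while the ranges overlapped. The fitted log2 fold change of Slc18a2 for WT_HFD/WT_SD was 0.31 (interval 0.02 to 0.61), with an unadjusted p of 0.0396 and an adjusted p of 0.910.

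The oxidases were the steadiest of the genes, and their intervals were the narrowest. Maoa was at 72.3, 73.3, 85.5, 74.6 and 73.7 CPM in WT_SD and had means of 78.0 ± 3.26 CPM in WT_HFD, 85.1 ± 6.72 in TG_SD and 81.4 ± 9.12 in TG_HFD. The TG_SD libraries started at 77.8 CPM, above 4 of the 5 WT_SD libraries. The fitted log2 fold change for TG_SD/WT_SD was 0.12 ± 0.05 (SE; interval 0.01 to 0.23), with an unadjusted p of 0.0327 and an adjusted p of 0.414, and the whole interval lay below the 0.3 needed for a call. Maob had means of 35.8 ± 2.30 CPM in WT_SD, 35.7 ± 1.41 in WT_HFD, 37.0 ± 4.49 in TG_SD and 38.3 ± 5.21 in TG_HFD. Its log2 fold change for TG_HFD/TG_SD was 0.15 (interval 0.04 to 0.25), with an unadjusted p of 0.00671 and an adjusted p of 0.520, and without surrogate variables it was 0.04. All 8 intervals of Maoa and Maob in the 4 comparisons lay within 0.3 of 0 on the log2 scale.

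Slc6a3, the dopamine transporter, was below the minimum mean count in brainstem. Its means were 0.407 ± 0.260 CPM in WT_SD (SD, n = 5), 0.301 ± 0.149 in WT_HFD, 0.183 ± 0.0885 in TG_SD and 0.231 ± 0.139 in TG_HFD (n = 6 each). These rest on 0 to 11 reads per library, and the groups overlapped. With a total of 50 reads over all libraries as the filter instead, edgeR gave Slc6a3 a log2 fold change of -1.33 for TG_SD/WT_SD with an adjusted p of 0.449, the lowest of its comparisons in brainstem.

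**Figure D2:**
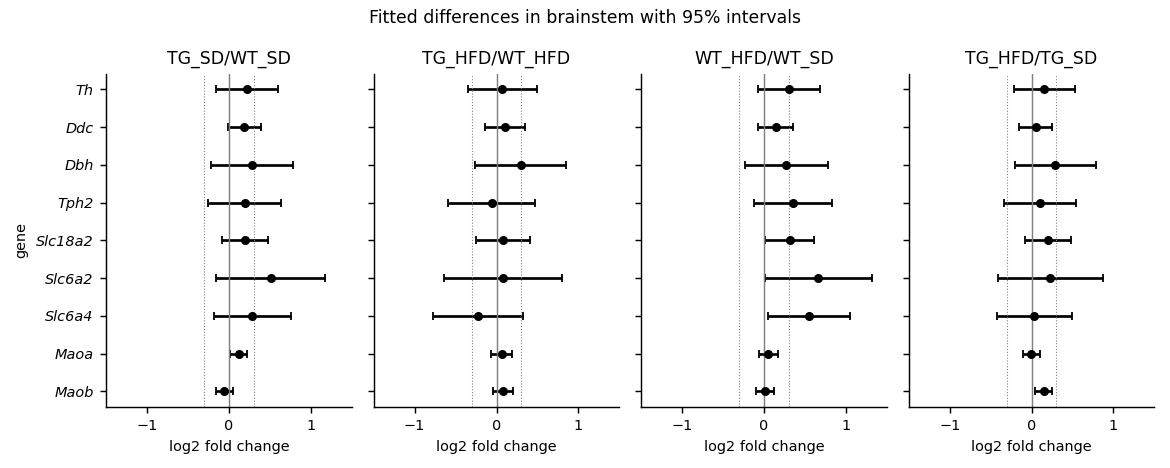
Fitted log2 fold changes in brainstem from edgeR for 4 comparisons (panels) and 9 genes (y axis). Points are estimates, horizontal bars 95% intervals, the solid line 0 and dotted lines the threshold of 0.3 in each direction; none was called, and Slc6a2 has the widest intervals, up to 1.31 for WT_HFD/WT_SD.

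Most signs were positive, but not under every setting. In brainstem, 9 of 9 fitted log2 fold changes were positive for WT_HFD/WT_SD, with a median of 0.30, against a median of -0.0068 over all genes tested. For TG_SD/WT_SD, 8 of 9 were positive with a median of 0.19 (all genes 0.0013), and for TG_HFD/TG_SD 8 of 9 with a median of 0.15 (all genes -0.0011). For TG_HFD/WT_HFD it was 7 of 9 with a median of 0.08 (all genes 0.0055), and without surrogate variables 2 of 9 with a median of -0.09. For TG_HFD/TG_SD it was 4 of 9 with 2 surrogate variables. For the comparisons with WT_SD, 8 or 9 of 9 were positive with every test, filter, scaling and number of surrogate variables tried. Leaving out libraries was not part of that count. Without WT_SD replicate 6, both Tph2 (-0.09) and Maob (-0.08) were negative for TG_SD/WT_SD. Since these genes vary together from mouse to mouse, as shown next, the signs are not 9 separate observations, and the comparisons with WT_SD share that group.

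Apart from the groups, the monoamine genes differed between mice more than most genes did. The SD of log2 CPM within groups was 0.91 for Slc6a2, 0.69 for Dbh, 0.47 for Th, 0.44 for Tph2 and 0.43 for Slc6a4, against a median of 0.16 over 13340 genes. In the order of all these genes, this placed Slc6a2 at percentile 99.8, Dbh at 99.6, Th at 99.2, Tph2 at 98.9 and Slc6a4 at 98.8. Slc18a2 was at percentile 91.9, Ddc at 63.7, Maob at 35.8 and Maoa at 20.8. Low counts add to the SD, and reads per brainstem library ran from 67 to 227 for Th, from 76 to 523 for Slc6a2, from 62 to 399 for Slc6a4 and from 726 to 1254 for Maoa.

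This variation fell into 2 sets, one of noradrenaline genes and one of serotonin genes, between which no relation passed the test. Pearson's r of log2 CPM after removal of group means, over 23 brainstem libraries, was 0.95 for Dbh and Slc6a2 (Spearman's rho 0.97), 0.85 for Th and Dbh (rho 0.81) and 0.81 for Th and Slc6a2 (rho 0.81). For Tph2 and Slc6a4 it was 0.95 (rho 0.94). Permutation p for these 4 pairs lay between 1e-05, the smallest that 100000 permutations give, and 2e-05 for r, and the adjusted p over 36 pairs was 0.00012 for each. Without the 2 libraries farthest from the median of the gene named first, r was 0.95, 0.78, 0.76 and 0.93 in the same order. Between the sets, r was 0.06 for Th and Tph2, -0.12 for Dbh and Tph2 and -0.20 for Slc6a2 and Slc6a4, with a permutation p of 0.79, 0.597 and 0.357. This depended on the processing, since r of Th and Tph2 was 0.50 (adjusted permutation p 0.031) after the surrogate variables were also removed. That p is too small, since the permutations do not count the 4 group means and 4 surrogate variables taken out of the 23 values. Whether this pair passes is thus not settled. After the removal, r was still 0.95 for Dbh and Slc6a2, 0.96 for Tph2 and Slc6a4, 0.71 for Th and Dbh and 0.67 for Th and Slc6a2.

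**Figure D3:**
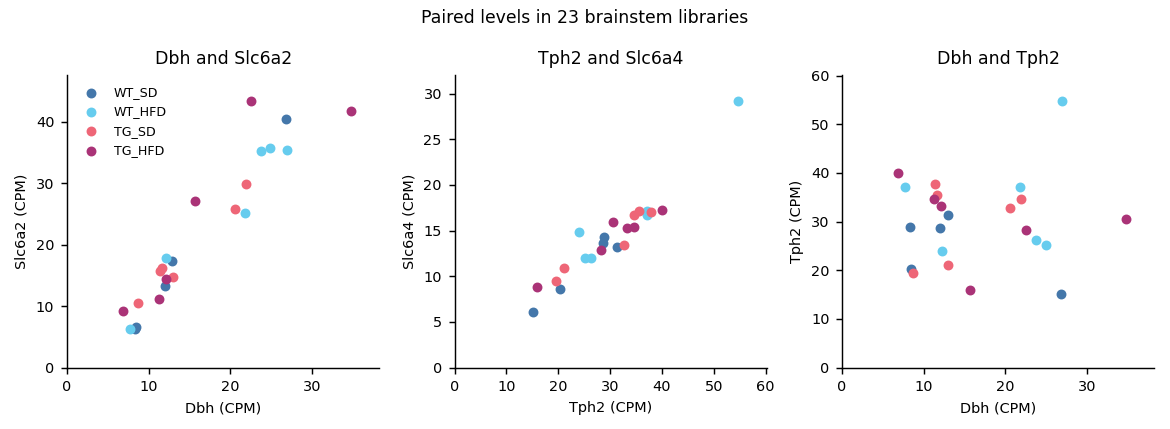
Levels of gene pairs in 23 brainstem libraries, in CPM on both axes from 0, each point a library coloured by group. Slc6a2 rises along with Dbh (r = 0.95) and Slc6a4 with Tph2 (r = 0.95), whereas Dbh and Tph2 show no common trend (r = -0.12); the 4 groups are mixed along each trend.

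The pairs held within genotypes and diets taken alone, a division chosen after seeing the data. The same 23 libraries were split by genotype and again by diet, so these values are not new tests. In WT (n = 11), TG (n = 12), SD (n = 11) and HFD (n = 12) libraries, r of Dbh and Slc6a2 was 0.97, 0.94, 0.96 and 0.95, and r of Tph2 and Slc6a4 was 0.95, 0.97, 0.96 and 0.94. The permutation p adjusted over 24 such values was at most 0.00016 for these. For Th and Tph2, r was -0.11, 0.23, 0.08 and 0.04, with an adjusted permutation p of at least 0.617. The ratios of CPM, taken without removal of group means, depend on the spread of both genes as well. Tph2 to Slc6a4 lay between 1.61 and 2.48 in all 23 libraries, Slc6a2 to Dbh between 0.748 and 1.92, and Dbh to Th between 0.915 and 2.13. Maoa to Maob, with a small spread of both genes, lay between 1.78 and 2.49.

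Ddc and Slc18a2, which both kinds of neuron use, each passed with some genes of either set. Ddc had r = 0.78 with Tph2, 0.77 with Slc6a4 and 0.52 with Th (adjusted permutation p 0.00012, 0.00012 and 0.0275), but its r of 0.30 with Dbh and 0.20 with Slc6a2 did not pass (adjusted permutation p 0.33 and 0.553). Slc18a2 had r = 0.62 with Th, 0.58 with Dbh, 0.54 with Slc6a2, 0.65 with Ddc and 0.54 with Tph2, all with an adjusted permutation p of at most 0.0233. Its rho with Tph2 was 0.33 with an adjusted p of 0.268, so this relation depended on the coefficient, and its r of 0.43 with Slc6a4 did not pass (adjusted permutation p 0.101). Maoa and Maob went together (r = 0.68, rho 0.66, adjusted permutation p 0.00154), and Maoa went with Slc18a2 (r = 0.58, adjusted permutation p 0.0121). In all, 14 of 36 pairs passed an adjusted p of 0.05 by r and 13 by rho.

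**Figure D4:**
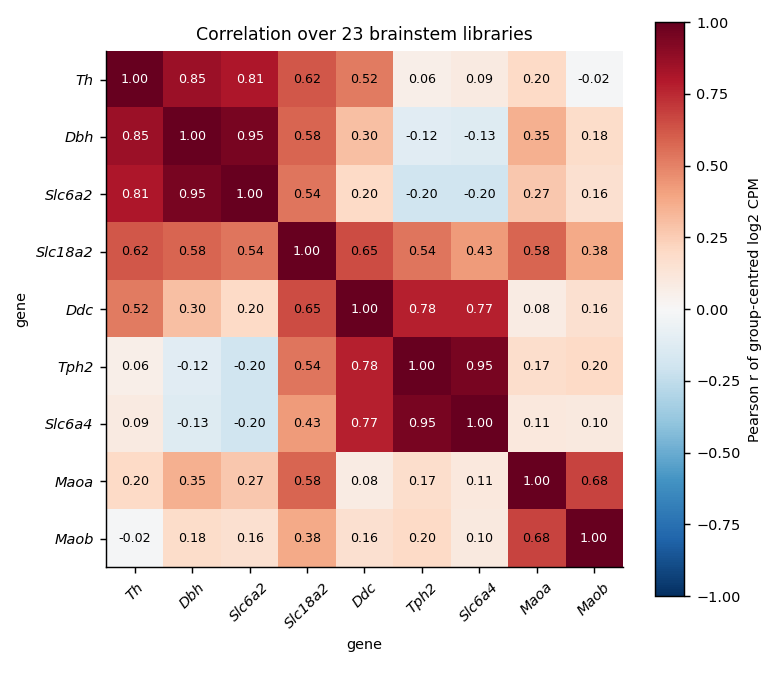
Pearson's r of group-centred log2 CPM between 9 genes over 23 brainstem libraries. Both axes list the genes and colour and printed number give r, from blue (-1) to red (1); Th, Dbh and Slc6a2 form one block of 0.81 to 0.95, Tph2 and Slc6a4 another at 0.95 joined by Ddc.

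Over 13339 other genes tested in brainstem, those most like Th were Dbh (r = 0.85), Gabrq, a GABA-A receptor subunit (0.82), Cyb561, a cytochrome of secretory vesicles (0.81), Slc6a2 (0.81) and the transcriptional regulator Prdm16 (0.80). Those most like Tph2 were Slc6a4 (0.95), Crhbp, which binds corticotropin-releasing hormone (0.81), Ddc (0.78) and the predicted genes Gm3739 (0.74) and Gm11223 (0.72). These are descriptions over 23 libraries, with group means removed. The first genes of both lists were thus members themselves.

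The piece of tissue also differed between mice. Summed CPM of 5 choroid plexus markers ran from 12.03 to 2968 over brainstem libraries, that of 6 markers of cerebellar granule and Purkinje cells from 13.2 to 139, and that of 13 Hox genes from 29.7 to 175. For choroid plexus, the medians of WT_SD, WT_HFD, TG_SD and TG_HFD were 51.8, 476, 867 and 151 CPM. For the cerebellar list they were 29.0, 48.3, 55.8 and 29.995 CPM, and for Hox genes 125, 88.1, 99.1 and 92.8 CPM. Thus WT_SD had the lowest median of the first 2 lists and the highest of Hox genes, with overlapping ranges. Over the 23 libraries, the choroid plexus list (3 testable markers) had r = 0.63 with Dbh and 0.63 with Slc6a2 (rho 0.61 for each), and the oligodendrocyte list had r = -0.68 with Slc6a2 (rho -0.66). The adjusted permutation p of r over 99 pairs of list and gene was 0.0229 for these 3, and that of rho was 0.055. Without the 2 libraries farthest from the median of the list, r was 0.59, 0.57 and -0.56. The Hox list had r = -0.32 and rho = -0.58 with Dbh, and r = -0.40 and rho = -0.53 with Slc6a2, with an adjusted permutation p of 0.326 and 0.197 for r. The adjusted permutation p of rho was 0.061 for each. Without the 2 libraries farthest from the median of the list, r was -0.50 and -0.55. The cerebellar list had r = 0.49 and rho = 0.56 with Dbh, and r = 0.54 and rho = 0.57 with Slc6a2. Its adjusted permutation p of r was 0.074 and 0.055. For Tph2 and Slc6a4, the largest r with any of the 11 lists was -0.45, between Tph2 and the glycinergic list. In 12 of the 99 pairs the adjusted p of r was at most 0.05, among them Maob with the hippocampal principal neuron list (r = -0.68, rho -0.65) and Maoa with the neuron list (r = -0.65, rho -0.52). The part of these differences in tissue in the variation of the monoamine genes was not tested.

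Hippocampus had little of the genes that mark noradrenaline and serotonin cell bodies, and of the genes tested the oxidases differed least between the regions. Slc6a2 had 2 reads in 24 hippocampus libraries, in 2 libraries with 1 read each, against 6174 reads in 23 brainstem libraries. This is a ratio of 3714 (95% counting interval 1028 to 30674) on library totals in favour of brainstem. Slc6a4 had 32 reads in hippocampus, with 6 libraries at 0, against 4137 in brainstem, a ratio of 156 (110.0 to 228). For Dbh the ratio was 25.2 (22.0 to 28.9), for Tph2 24.4 (22.1 to 26.9) and for Th 18.4 (15.9 to 21.5), from 223, 430 and 188 reads in hippocampus. These intervals cover counting error only.

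Mean hippocampus levels were 0.543 ± 0.199 CPM for Th, 0.638 ± 0.294 for Dbh and 1.23 ± 0.268 for Tph2 (SD, n = 24), against 10.0 ± 3.50, 16.4 ± 7.71 and 30.1 ± 8.90 CPM in brainstem (n = 23). The highest hippocampus library lay below the lowest brainstem library for each of these genes. Slc18a2 was at 6.11 ± 0.796 CPM in hippocampus and 42.9 ± 8.84 in brainstem, and Ddc at 5.51 ± 0.922 and 31.8 ± 4.17 CPM, so that the regions did not overlap here either. Nor did they for Maoa, at 36.4 ± 2.62 CPM against 80.3 ± 7.04 CPM. Maob was at 28.2 ± 3.03 CPM in hippocampus, from 23.2 to 35.6, and at 36.7 ± 3.65 CPM in brainstem, from 32.6 to 47.9, with overlap. Per exonic length, Maob was the most abundant of the genes in hippocampus at 10.1 ± 1.09 CPM per kb, followed by Maoa at 8.74 ± 0.630, Ddc at 1.24 ± 0.207 and Slc18a2 at 1.17 ± 0.152. Maob and Maoa differed by more than either SD, and Ddc and Slc18a2 by less.

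In the edgeR test of the mean of the 4 hippocampus groups against that of the 4 brainstem groups, all 9 genes tested were lower in hippocampus, where 61.3% of 13986 genes were called in either direction. A gene was tested where it reached the mean count in either region. Th, Dbh, Tph2, Slc6a2 and Slc6a4 reached it in brainstem only, so that their direction follows from the filter: of all 715 such genes, 98.7% were called lower in hippocampus. Ddc, Slc18a2, Maoa and Maob reached it in both regions, where 29.3% of 12619 genes were called lower and 28.6% higher. The paper describes RNA of both regions as taken from the animals of each group, so libraries of both regions can come from the same mouse. The labels do not tie the libraries of both regions to a mouse, so they were treated as separate samples, and any such pairing was left out. The log2 fold changes were -7.14 ± 0.19 (SE) for Slc6a4, -4.60 ± 0.21 for Dbh, -4.54 ± 0.13 for Tph2, -4.13 ± 0.15 for Th, -2.75 ± 0.07 for Slc18a2 and -2.48 ± 0.06 for Ddc. Those of Maoa and Maob were -1.09 ± 0.03 and -0.34 ± 0.04. The adjusted p was at most 4.41e-10 in edgeR. For Maob, the fold change of -0.29 with WT_SD libraries alone fell short of the threshold. Slc6a3 was not testable in either region, with 102 reads in hippocampus and 81 in brainstem, a ratio of 0.955 (0.705 to 1.29) of brainstem to hippocampus.

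**Figure D5:**
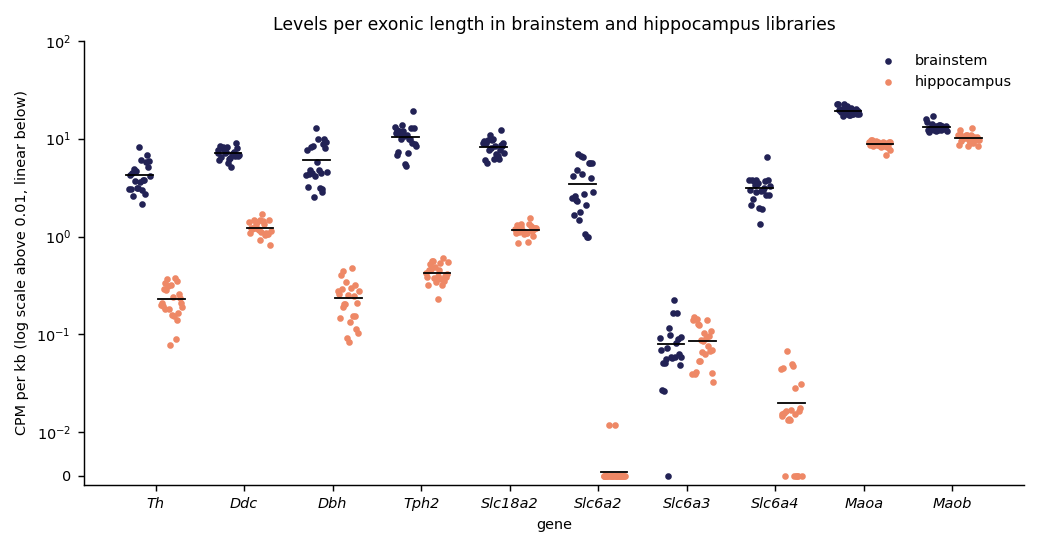
Levels of all 10 genes by region. Each point is a library, the y axis gives CPM per kb of exonic length on a log scale above 0.01 and a linear one below, and black lines are means; the regions overlap only for Maob and Slc6a3, and the latter is low in both (0.0796 and 0.0855 CPM per kb).

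Within hippocampus, none of the 4 testable genes was called between genotypes or diets. Over all 13272 genes tested, 0.0904% were called for TG_SD/WT_SD, 0.226% for TG_HFD/WT_HFD, 0% for WT_HFD/WT_SD, 0% for TG_HFD/TG_SD and 0% for the interaction. In the last 3, edgeR gave 850, 940 and 794 genes an unadjusted p of at most 0.05, and DESeq2 called 3, 2 and 1. None of the 20 tests of these 4 genes had an unadjusted p of at most 0.05 in edgeR, and DESeq2 called none. Slc18a2 had the largest values, with a log2 fold change of -0.24 (interval -0.56 to 0.07) for TG_HFD/WT_HFD and -0.18 (interval -0.42 to 0.06) for TG_SD/WT_SD. Without surrogate variables these were -0.0059 and -0.09. Its means were 6.285 ± 1.24 CPM in WT_SD, 6.12 ± 0.451 in WT_HFD, 5.92 ± 0.842 in TG_SD and 6.11 ± 0.612 in TG_HFD (SD, n = 6). Maoa and Maob stayed within 0.3 of 0 on the log2 scale over all their intervals in the 4 comparisons. For the low genes Th, Dbh and Tph2, mean CPM was tested by 12 exact permutation tests (two-sided). The lowest exact p was 0.134, for Dbh at 0.821 ± 0.292 CPM in TG_SD and 0.579 ± 0.222 CPM in TG_HFD, and the lowest adjusted p was 0.741, where 6 against 6 libraries could reach 0.00216. Per library, 3 to 14 reads for Th and 3 to 20 for Dbh stood behind these values.

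In the wider pathway, 0 genes were called between groups in any comparison within a region. The lists are those of noradrenaline, serotonin and dopamine neurons, cofactor synthesis, breakdown and receptors. Per list, 1 to 8 genes reached the mean count in brainstem and 2 to 9 in hippocampus. Over all genes, 0% to 0.226% were called in these comparisons, so that 0 was close to this background. Between regions, the lists are counted here over genes that reached the mean count in both. Of the tetrahydrobiopterin pathway, which makes the cofactor of Th and Tph2, 3 of 5 such genes were called lower in hippocampus, beside 29.3% of all genes. Genes called lower included Gch1, the first enzyme of the pathway, which reached the count in brainstem only (4.50 ± 1.102 CPM in brainstem, 1.34 ± 0.379 in hippocampus), Qdpr (286 ± 22.1 and 94.9 ± 6.80 CPM) and Pcbd1, while Pts, at 25.3 ± 3.34 and 21.5 ± 2.17 CPM, was not called. Of 8 genes of breakdown and extraneuronal uptake, 3 were lower (Aldh1a1, Maoa and Maob), a share near that of all genes, among them Aldh1a1, an aldehyde dehydrogenase, at 310.5 ± 29.4 CPM in brainstem and 50.2 ± 6.13 CPM in hippocampus. Aldh2, the most abundant of this list in hippocampus at 65.4 ± 6.67 CPM, was not called. Of the noradrenaline list, Ddc, Slc18a2 and Cyb561 reached the count in both regions and were lower. Cyb561, its most abundant gene, had a difference of only -0.38 on the log2 scale. Of the serotonin list, Ddc and Slc18a2 did so, while Lmx1b and Gata2 reached the count in brainstem only, as Slc6a4 and Tph2 did, and were called lower. Of the dopamine list, Ddc, Slc18a2 and Aldh1a1 were lower, and Nr4a2, an orphan nuclear receptor also active in other neurons, was higher at 31.5 ± 3.97 CPM against 4.16 ± 0.963 CPM.

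Receptors went in both directions, counted here over genes that reached the mean count in either region. Of 6 adrenergic receptor genes tested, Adra1d, Adra2c and Adrb1 were higher in hippocampus and Adra1b and Adra2a lower, with Adra1d at 26.5 ± 4.15 CPM against 1.63 ± 0.467 CPM in brainstem and Adra2a, also the autoreceptor of noradrenaline neurons, at 8.46 ± 1.08 against 27.6 ± 2.24 CPM. Of 9 serotonin receptor genes, Htr1a, Htr3a, Htr4 and Htr5b were higher and Htr1b, Htr2c and Htr7 lower. The most abundant of them were Htr2c (141 ± 16.9 CPM in brainstem, 46.8 ± 6.88 in hippocampus) and, in hippocampus, Htr1a (19.8 ± 2.11 and 32.3 ± 2.30 CPM). Of 3 dopamine receptor genes, Drd1 and Drd5 were higher and Drd2 was lower, at 1.97 ± 0.437 against 9.61 ± 1.61 CPM. Of these receptor genes, Adra1b and Drd2 reached the count in brainstem only and Adra1d, Adrb1, Drd1, Drd5, Htr4 and Htr5b in hippocampus only, which fixes their direction. Among genes that reached it in both regions, 1 of 3 adrenergic receptor genes was higher and 1 lower. Of 7 such serotonin receptor genes, 2 were higher and 3 lower, and no dopamine receptor gene reached it in both. Over all genes that reached it in both regions, 28.6% were higher and 29.3% lower. The lists were counted only, and no list was tested as a set.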

How the data were processed

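RNA was sequenced from 23 brainstem and 24 hippocampus libraries, grouped by their labels. The authors aligned 75-base single-end reads with STAR 2.7.9a to a mouse genome with the human transgene added, and deposited raw counts of reads per gene. The counting tool and its use of strand are not given in the sources used here. Genes were matched by Ensembl identifier, symbols came from a reference table of gene names, and exonic lengths from the GENCODE annotation of GRCm38, another build than the alignment. Promoters came from RefSeq for GRCm38.p6, where 8 of the 10 genes had an entry. The tables held 0 columns of unmapped libraries.

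Here, counts were TMM-scaled and tested with edgeR 4.0.16 in R 4.3.3 (quasi-likelihood, Benjamini-Hochberg adjustment over all genes, minimum mean count of 50), fitting all 4 groups of each region together with 4 surrogate variables from sva 3.50.0. Regions were compared without them. Log2 CPM used a prior count of 2. Correlations used 100000 permutations over all libraries after centring, which do not count the group means removed and make p somewhat too small. Low genes were tested by exact permutation. DESeq2 1.42.0, RLE scaling, 0, 1 or 2 surrogate variables, other filters, a GC correction, the replicate number as a block and each library left out were alternatives, and pairs within genotypes or diets were added after seeing the data. The scripts were tested on simulated data.

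The 10 genes and the lists of other genes were chosen with earlier results of these data known. Named genes were all 10 members, every called gene and the 2 most abundant of each list, and the 5 genes nearest to Th and to Tph2, and some genes of the lists are not reported here. Levels of the 10 genes were ranked per exonic length, whereas the most abundant genes of each list and the ratios within libraries rest on CPM. P values measure the spread between these libraries.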

Additional observations from a re-analysis of the deposited data

Results flagged for a closer look

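In 64 groups of libraries with a mean count of at least 5, 6 held a value far from the others of its group (Dixon's criterion), where chance flags about 1 in 20 groups, and the genes vary together. TG_HFD replicate 7 of brainstem had 19.2 CPM of Th, next to 10.9 CPM in the second highest library of its group. WT_SD replicate 1 of brainstem had 26.8 CPM of Dbh, next to 12.9 CPM. WT_HFD replicate 3 of brainstem stood out for both Slc18a2, at 64.7 CPM next to 47.3 CPM, and Slc6a4, at 29.2 CPM next to 17.2 CPM. WT_SD replicate 6 of brainstem had 85.5 CPM of Maoa, next to 74.6 CPM. In hippocampus, WT_HFD replicate 7 had 23.2 CPM of Maob, below the next lowest library at 26.8 CPM. No cause of these values was tested.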

How the results depend on the processing

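The count of 0 members called within a region held in all 335 combinations of comparison and alternative, and the lowest adjusted p of a member in any of them was 0.149. Signs were less stable: of 2165 fitted values of members under these alternatives, 220 had another sign than the value reported, none of them called, and the largest reported value among those that changed sign was 0.30 on the log2 scale. Whether replicate numbers pair the libraries was not tested. The paper assigned mice to diets within litters, and the labels do not say whether a number marks a litter. Deviations correlated above 0.1 in 10 of 26 pairs of brainstem libraries with the same number in 2 groups, and in 15 of 36 in hippocampus. The mean correlation was 0.0431 against -0.00521 for other numbers in brainstem, and 0.108 against -0.0216 in hippocampus. With the replicate number as a block, 0 members were called in each comparison, and Slc6a2 for WT_HFD/WT_SD was 0.24, against 0.67 in the same fit without the block. Between regions, 9 members were called in every alternative apart from those with WT_SD libraries alone and with a filter at a mean count of 10, where Maob fell short of the fold threshold at -0.29 and, by a small margin, at -0.30. Counts over all genes depended on the surrogate variables: 19 genes were called for TG_SD/WT_SD in brainstem with them and 4 without, and 30 for TG_HFD/WT_HFD in hippocampus with them and 515 without. Of pairs of members, 14 passed with TMM scaling, 14 with library totals and 19 after removal of the surrogate variables, where Th and Tph2 (r = 0.50), Th and Maoa (0.52), Dbh and Maoa (0.75), Slc6a2 and Maoa (0.61) and Slc18a2 and Slc6a4 (0.60) also passed. After this removal the permutation p is too small, as stated for Th and Tph2 above, so the count of 19 is an upper one. Dbh with Slc6a2 (0.95) and Tph2 with Slc6a4 (0.96) held there. The cause was not tested. Depth limits the low genes: Th, Dbh and Tph2 in hippocampus rest on 3 to 28 reads per library. Slc6a3 was tested only with the filter on the total count, and Slc6a2 and Slc6a4 were not tested within hippocampus.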
